A study of Mus musculus with 12 samples.

Results

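The 10 genes described here encode the Notch receptors Notch1, Notch2, Notch3 and Notch4, the ligands Jag1, Jag2 and Dll1, the target transcription factors Hes1 and Hey1, and the receptor-modifying enzyme Lfng, in mouse embryonic humeri without and with Runx2. They were measured by every probe set, other than array controls, whose platform annotation listed exactly 1 gene symbol that was among the 10, which gave 22 of the 36701 probe sets and 10 of the 15964 named genes. Runx2-null (Runx2-/-) humeri were compared with wild-type humeri at stage E14.5. RNA came from 4 pools, 2 per genotype, of approximately 60 Runx2-null or approximately 75 wild-type humeri each, and 10 µg of total RNA per pool was labelled. Each pool was hybridised to 3 types of Affymetrix U74 version 2 array, here called A, B and C, for 12 arrays in all. The strain, the Runx2 allele and the sex of the embryos are not given in the sources used here, and pooling leaves differences between embryos unmeasured. A humerus at this stage holds cartilage with its perichondrium and vessels, and each value is a mixture over all cells of the pool.

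Notch receptors are transmembrane proteins that are activated by ligands on neighbouring cells. Binding exposes the receptor to cleavage by a metalloprotease and then by gamma-secretase, and the released intracellular domain joins the DNA-binding protein Rbpj to switch on Hes and Hey genes, whose products repress other genes. In the limb skeleton Notch signalling is known to hold back the differentiation of mesenchymal progenitors into cartilage and bone, and Hey1 is known as an inhibitor of the activity of Runx2, the transcription factor that osteoblast differentiation requires. Notch genes are also used by blood vessels, with Notch4 mainly in endothelium and Notch3 mainly in the mural cells around it.

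The deposited values are MAS5 signals, an intensity per probe set and array, and a probe set's signal was compared only with itself on other arrays of its type. Array medians lay between 37.5 and 60.4 units. The chondrocyte marker list checked the tissue. On array A its 11 tested probe sets summed to 17701.5 and 15873.8 units in Runx2-null humeri and to 15327.2 and 16504.9 units in wild-type humeri. Of its 15 tested probe sets on arrays A and B, 6 had a lower and 9 a higher mean log2 signal in Runx2-null humeri. Among the lower, Hapln1 on array A read 315.4 and 378.7 units in Runx2-null and 504.3 and 642.7 units in wild type. Col2a1, not in the sum, was dim at 10.5 and 9.1 units in Runx2-null and 26.4 and 5.7 units in wild type. Runx2 is not analysed here. The check of genotype used Ibsp, the bone sialoprotein gene of osteoblasts. Its brighter probe set measured 8.4 and 5.4 units in Runx2-null humeri and 1679.7 and 2221.1 units in wild-type humeri. The dimmer one read 34.4 and 17.0 units in Runx2-null and 74.4 and 38.5 units in wild type. Both lie on array A, so they do not check the labels of array B. On array B the osteoclast gene Acp5 read 72.6 and 182.7 units in Runx2-null and 502.9 and 797.4 units in wild type. On all 3 array types the 2 arrays numbered 1 were scanned with one scanner setup and the 2 numbered 2 with another. The replicate number is called the scan batch below, but within each genotype it also stands for different RNA pools. On arrays A and B pool and scan change together, and the part of each in a difference between scan batches was not tested.

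On array C the labels and the control spots disagreed. The probe set for the 5′ part of 18S ribosomal RNA, a control present on every array, followed the replicate number on arrays A and B. On array A it read 542.5 and 31.3 units in Runx2-null pools 1 and 2, and 446.1 and 38.5 units in wild-type pools 1 and 2. On array B it read 766.7 and 68.7 units in Runx2-null pools and 848.6 and 68.9 units in wild-type pools. On array C it followed the genotype label, with 172.8 and 129.1 units on the arrays labelled Runx2-null and 1545.7 and 2019.0 units on the arrays labelled wild type. Over the 66 control probe sets, the labelled genotype difference on array C correlated with the replicate-number difference of array A at r = 0.87 and of array B at r = 0.87, whereas the labelled number difference of array C correlated with them at r = -0.26 and r = -0.25. Array C was scanned with the same split by number. Its arrays sharing a number deviated together from the genotype means at r = 0.06 across probe sets, against 0.76 on array A and 0.59 on array B. These are correlations across probe sets that share arrays, given as a description. Array C values are therefore given as labelled and no direction is drawn from them.

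**Figure D1:**
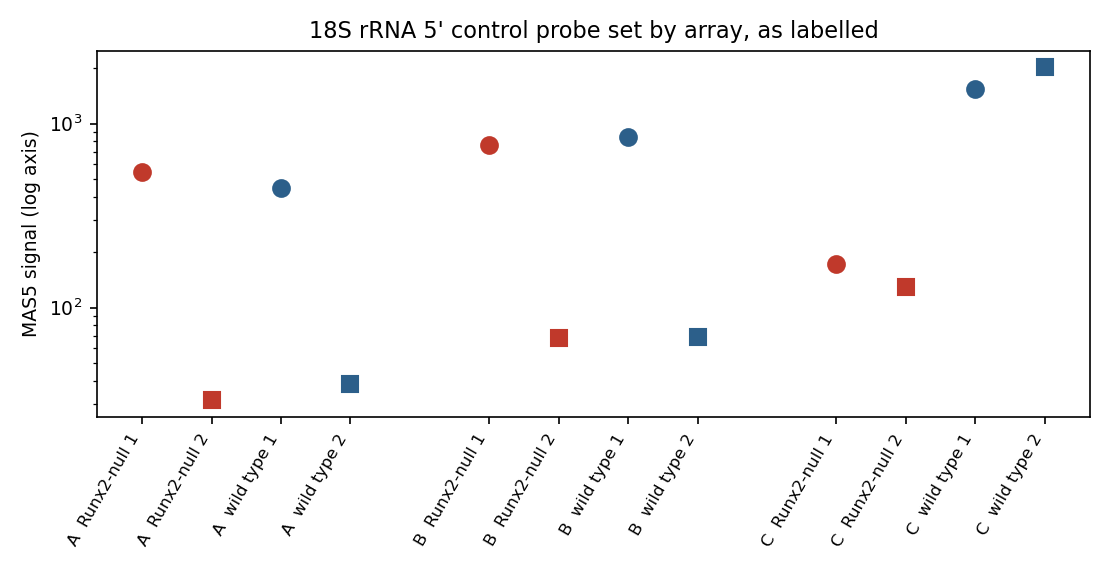
MAS5 signal of the probe set for the 5′ part of 18S ribosomal RNA on each of the 12 arrays, on a log axis, with Runx2-null arrays in red, wild-type arrays in blue, circles for replicate 1 and squares for replicate 2. On arrays A and B the arrays numbered 1 sit high and those numbered 2 low in both genotypes, whereas on array C the 2 arrays labelled wild type sit high and the 2 labelled Runx2-null sit low.

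No probe set of the 10 genes passed the test between Runx2-null and wild-type humeri. Of the 22, 13 exceeded the 40th percentile of their array on at least 2 of the 4 arrays and were tested, 9 of them on arrays A and B. The test was limma on log2 signals with Benjamini-Hochberg adjustment over all tested probe sets, first without and then with the scan batch as a block, and a probe set was called at an adjusted p under 0.05. Without the block 0 of the 13 were called, against 0.0259% of the 23193 probe sets tested. With the block 0 of the 9 on arrays A and B were called, against 2.2% of 15601, of which 0.904% were higher and 1.29% lower in Runx2-null humeri. At an unadjusted p under 0.05 without the block, 0 of the 9 passed, against 2.06% of all those tested on arrays A and B, and on array C 0 of the 4, against 19.4%. In whole-tissue RNA, fewer cells of a type and less RNA per cell cannot be told apart.

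Taken with its sign, the genotype difference of the 9 was negative for 7 and positive for 2. Its median was -0.08 on the log2 scale, against 0.01 over all probe sets tested on arrays A and B, and its median size regardless of sign was 0.33, against 0.19. In 1 of the 9 the arrays of the genotypes did not overlap, where 25.3% of all tested probe sets did not, and in 6 of the 9 the difference had the same sign in both scan batches, where 60.1% of all did. Of these 6, 5 were lower in Runx2-null in both batches, a pattern that 28% of all tested probe sets had. Lfng on array B is counted among the 7 negative and these 5. It entered the test only through its wild-type arrays, where it was higher, so the filter favoured its sign. These shares are near the background or rest on few probe sets.

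The receptors open the series of single genes. Notch1, the receptor that limb mesenchyme and endothelium both use, had its brighter probe set on array A at 94.2 and 92.8 units in Runx2-null humeri and at 135.8 and 104.2 units in wild-type humeri. Both Runx2-null pools lay below both wild-type pools, so the groups did not overlap. The means were 93.5 ± 0.99 units in Runx2-null and 120.0 ± 22.3 units in wild type (SD, n = 2 each). The log2 difference was -0.33 (SE 0.25 without the block, SE 0.15 with it), and limma's adjusted p was 0.971 without and 0.348 with the block. Its 95% interval with the block, -0.66 to 0.01, reaches down to 0.633 of the wild-type level, and the difference was -0.16 in scan batch 2 and -0.50 in scan batch 1.

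The dimmer Notch1 probe set on array A gave no such separation. It measured 36.5 and 22.7 units in Runx2-null humeri and 31.7 and 30.3 units in wild-type humeri. Here 1 Runx2-null pool was the highest of the 4 and the other the lowest. The log2 difference was -0.08 with a 95% interval of -0.67 to 0.51 and an adjusted p of 0.933 with the block. Its suffix r marks a probe set for which some of the manufacturer's selection rules were dropped. The same suffix is carried by the tested array C probe sets of Jag1 and Hey1 and by both Dll1 probe sets on array C. It is also carried by the dimmer Dll1 probe set on array A and the Acp5 probe set on array B.

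Notch2, a receptor that skeletal progenitors share with Notch1, had its brighter probe set on array A at 86.8 and 128.2 units in Runx2-null humeri and at 124.1 and 149.8 units in wild-type humeri. The groups overlapped, because Runx2-null pool 2 exceeded wild-type pool 1, yet within each scan batch the Runx2-null pool was the lower, by -0.21 in batch 2 and -0.48 in batch 1. The difference came to -0.35 on the log2 scale (block SE 0.15). It carried the lowest adjusted p of the 9 with the block, 0.279, against 0.990 without it, and its 95% interval ran from -0.66 to -0.04, which is not adjusted for the number of probe sets tested.

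The dimmer Notch2 probe set on array A went the other way in one batch. It measured 53.0 and 24.0 units in Runx2-null humeri and 16.9 and 36.7 units in wild-type humeri, with 3 of the 4 arrays over the filter. The difference was -0.50 in scan batch 2 and 1.33 in scan batch 1, which pooled to 0.42 with a 95% interval of -0.36 to 1.19 and an adjusted p of 0.650 with the block. The Notch2 probe sets thus disagreed in sign, and neither passed.

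Notch3, the receptor of vascular mural cells, had nearly the same signal in the genotypes of each scan batch. Its probe set on array A read 142.2 and 75.3 units in Runx2-null humeri and 148.6 and 76.4 units in wild-type humeri. The pools numbered 1 were high and those numbered 2 low whatever the genotype. The log2 difference between genotypes was -0.04 (block SE 0.15, adjusted p 0.939), and its 95% interval of -0.36 to 0.28 leaves room for 0.78 to 1.21 times the wild-type level.

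Notch4, the endothelial receptor, was mostly dim. On array A the brighter of its probe sets stayed untested at 26.5 and 10.4 units in Runx2-null humeri and 28.9 and 18.3 units in wild-type humeri. The dimmer one, whose suffix f marks a sequence shared by a family, read 3.2 and 3.1 units in Runx2-null and 3.4 and 2.2 units in wild type, also untested. The 40th percentile that the filter used lay between 20.9 and 29.7 units on array A, so a low-lying difference of Notch4 was not measurable there. The probe set on array C was tested and read 85.9 and 171.9 units on the arrays labelled Runx2-null and 99.8 and 100.1 units on those labelled wild type, a log2 difference of 0.26 as labelled (SE 0.35, adjusted p 0.999 without the block). There 1 array stood above the other 3.

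**Figure D2:**
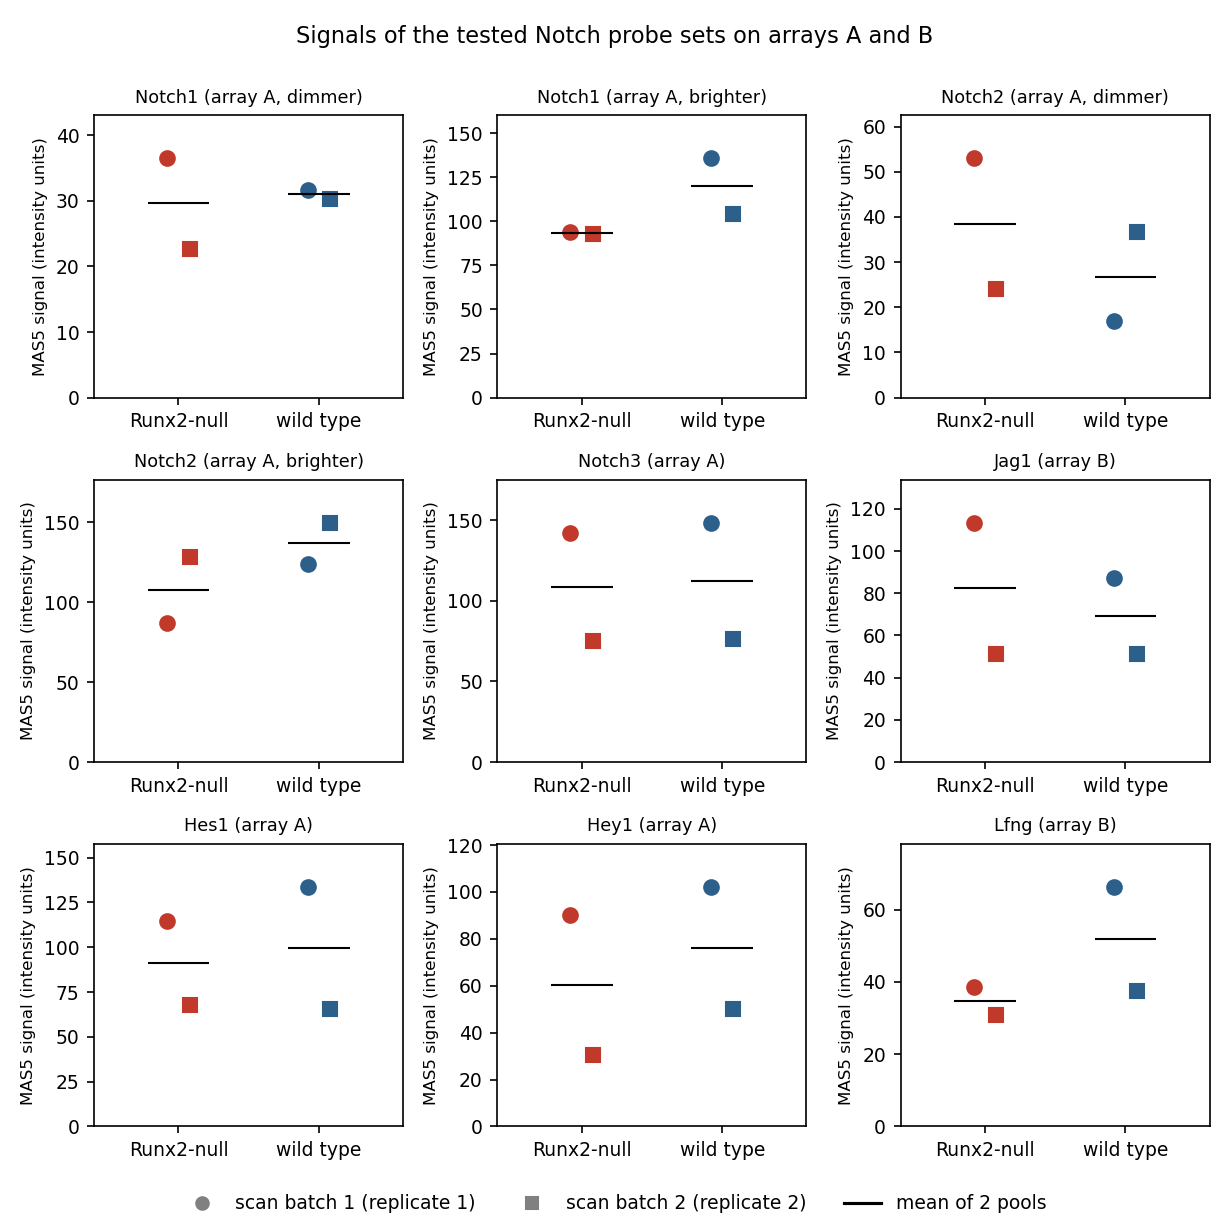
MAS5 signals of the 9 tested probe sets on arrays A and B in Runx2-null humeri (red, left) and wild-type humeri (blue, right), with circles for scan batch 1, squares for scan batch 2 and a bar at the mean of the 2 pools. The brighter Notch1 probe set is the only panel of the 9 without overlap between the genotypes. In the Notch3, Jag1, Hes1, Hey1, Lfng and both Notch1 panels the circle lies above the square within each genotype.

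Among the ligands only Jag1 gave a tested value on arrays A and B. Jag1, a Serrate-type ligand with roles in vessels and skeletal progenitors, had its tested probe set on array B at 113.5 and 51.4 units in Runx2-null humeri and at 87.3 and 51.0 units in wild-type humeri. The batch 1 pools were the higher in both genotypes, and the batch 2 pools were nearly equal. The log2 difference was 0.17 (block SE 0.25, adjusted p 0.999 without the block and 0.815 with it), and its 95% interval ran from -0.39 to 0.74, or 0.761 to 1.67 times the wild-type level.

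The other Jag1 probe sets were dim or lay on array C. The untested one on array B read 15.2 and 5.3 units in Runx2-null humeri and 79.5 and 6.7 units in wild-type humeri. Only wild-type pool 1 passed the filter there, so it was not tested. On array C, 1 stayed untested at 5.5 and 4.0 units on the arrays labelled Runx2-null and 23.3 and 14.2 units on those labelled wild type. The last, tested on array C, read 36.1 and 74.6 units on arrays labelled Runx2-null and 81.4 and 76.9 units on those labelled wild type, a log2 difference of -0.51 as labelled (SE 0.39, adjusted p 0.970 without the block).

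Jag2 and Dll1, the other ligands, were dim on array A, and 1 array exceeded the filter for 1 Dll1 probe set, that of wild-type pool 1. Jag2, which acts in the limb bud's ectodermal ridge, had 1 probe set at 2.7 and 2.7 units in Runx2-null humeri and 4.2 and 2.6 units in wild-type humeri. For Dll1, a Delta-type ligand best known from the segmentation of the embryo, 1 probe set read 6.7 and 1.8 units in Runx2-null and 2.1 and 1.2 units in wild type, and the other read 10.3 and 3.7 units in Runx2-null and 31.0 and 2.8 units in wild type. None of these was tested, and whether either ligand differed was not detectable at this signal. On array C 1 Dll1 probe set was untested as well, at 0.6 and 6.2 units on arrays labelled Runx2-null and 5.7 and 1.6 units on those labelled wild type. The tested Dll1 probe set on array C read 40.7 and 50.1 units on arrays labelled Runx2-null and 40.4 and 39.6 units on those labelled wild type, and its log2 difference as labelled was 0.14 (SE 0.36, adjusted p 0.999 without the block).

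Hes1 and Hey1 are switched on by the Notch intracellular domain in many tissues and are commonly read as markers of its activity. Hes1, a basic helix-loop-helix repressor that also answers to other pathways, had its probe set on array A at 114.5 and 68.0 units in Runx2-null humeri and at 133.6 and 65.5 units in wild-type humeri. The genotypes overlapped fully, and the pools numbered 1 were the higher in each. The means were 91.3 ± 32.9 units in Runx2-null and 99.6 ± 48.2 units in wild type (SD, n = 2 each). The log2 difference was -0.08 (block SE 0.16, adjusted p 0.999 without the block and 0.870 with it), with opposite signs in the batches, 0.05 in batch 2 and -0.21 in batch 1. Its 95% interval of -0.43 to 0.26 covers 0.745 to 1.20 times the wild-type level.

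Hey1, the Hes-related repressor known to act on Runx2, was lower in the Runx2-null pool of each batch. The Hey1 probe set on array A read 90.1 and 30.6 units in Runx2-null humeri and 102.1 and 50.2 units in wild-type humeri. The genotypes overlapped because the batches differed more than the genotypes did. A log2 difference of -0.39 resulted (SE 0.55 without the block, SE 0.19 with it), made up of -0.61 in batch 2 and -0.17 in batch 1. It did not pass, with an adjusted p of 0.377 with the block and 0.999 without, and its 95% interval of -0.80 to 0.03 covers 0.573 to 1.02 times the wild-type level. The one on array C read 64.6 and 91.3 units on arrays labelled Runx2-null and 68.3 and 88.0 units on those labelled wild type, a log2 difference of -0.01 as labelled (SE 0.32, adjusted p 0.999 without the block).

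Lfng encodes Lunatic fringe, a glycosyltransferase that adds a sugar to Notch and so changes which ligands activate it. Its probe set on array B read 38.7 and 31.0 units in Runx2-null humeri and 66.3 and 37.4 units in wild-type humeri. Only the wild-type arrays exceeded the filter, so the probe set entered the test through the group where it was higher. The means were 34.9 ± 5.44 units in Runx2-null and 51.9 ± 20.4 units in wild type (SD, n = 2 each), and the groups overlapped. The log2 difference was -0.41 (block SE 0.31, adjusted p 0.999 without the block and 0.610 with it), with a wide 95% interval of -1.11 to 0.30. Array A had a further Lfng probe set, untested at 19.3 and 11.8 units in Runx2-null and 12.3 and 16.2 units in wild type.

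**Figure D3:**
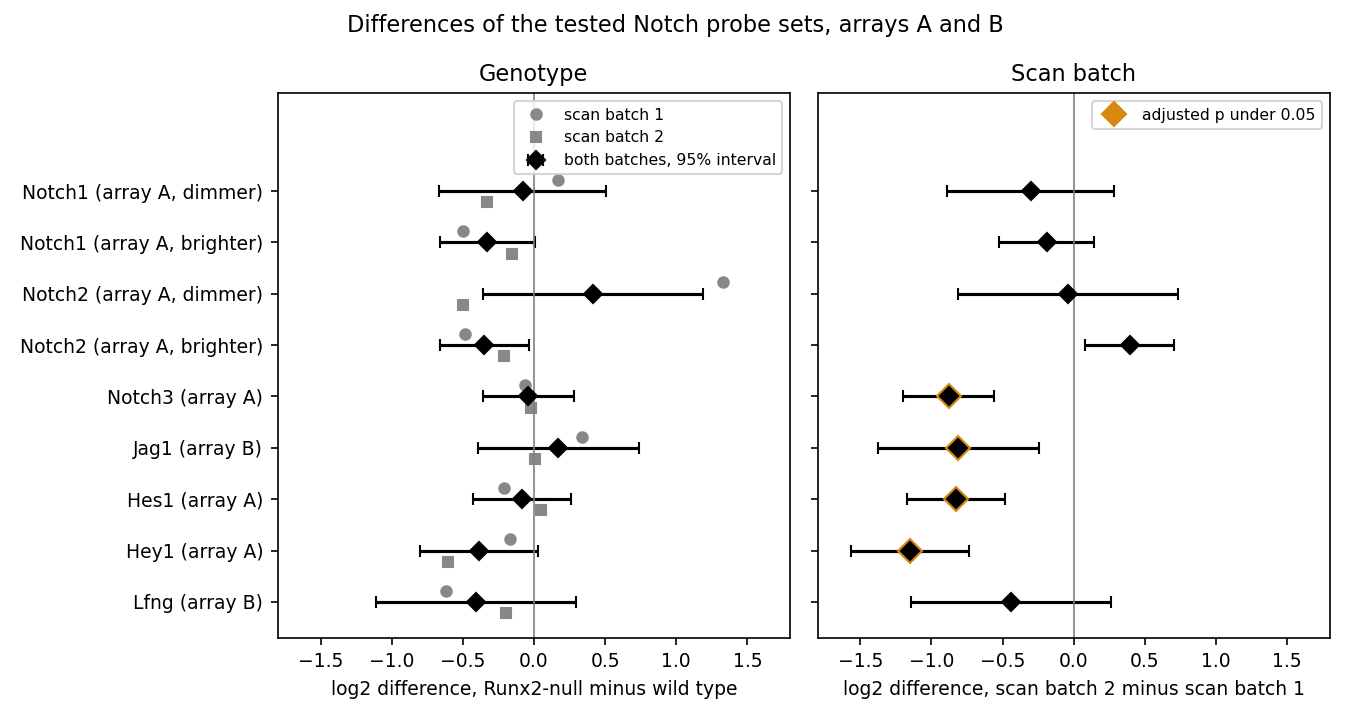
Log2 differences of the 9 tested probe sets on arrays A and B. Left, Runx2-null minus wild type with the 95% interval of the fit with the scan batch as a block, and the difference within each batch in grey. Right, scan batch 2 minus scan batch 1 with its 95% interval, orange rims marking an adjusted p under 0.05. No genotype difference is marked, and Notch3, Jag1, Hes1 and Hey1 are marked as lower in scan batch 2.

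The promoter of Lfng is shown because it was the only one of the windows searched with a match to the Rbpj motif, the element through which the Notch intracellular domain reaches DNA. RefSeq windows of 250 bases before the gene start (GRCm38.p6) were held for 8 of the 10 genes, in 9 windows, Dll1 having more than 1 start. Hes1 and Hey1 were not searched. GTGGGAA, searched on both strands, occurred in 1 of the 9 windows and in 5.42% of 32851 windows of that length. The shorter TGGGAA, which lies within it, also occurred in 1 of the 9 and in 21.6% of all. The Lfng window is chr5:140607091-140607340 on the plus strand, and its capitals mark a TGGGAA match on the minus strand that begins 135 bases before the start and a GTGGGAA match on the plus strand whose TGGGAA begins 108 bases before it. A match is only a match of letters, and binding was not measured.
Lfng: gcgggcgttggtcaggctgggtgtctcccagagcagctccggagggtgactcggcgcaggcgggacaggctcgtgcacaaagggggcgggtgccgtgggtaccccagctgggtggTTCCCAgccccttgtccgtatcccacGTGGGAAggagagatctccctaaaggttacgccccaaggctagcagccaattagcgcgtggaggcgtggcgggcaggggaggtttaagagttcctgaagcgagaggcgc

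Between scan batches, Notch3, Jag1, Hes1 and Hey1 differed more than between genotypes. With both genotypes together, 4 of the 9 probe sets were called between batches at an adjusted p under 0.05, against 27.1% of all 15601. The 4 were all lower in batch 2, as were 2255 of the 4235 called over all probe sets. Hey1 averaged 40.4 units in batch 2 and 96.1 units in batch 1, a log2 difference of -1.15 (SE 0.19, limma's adjusted p 0.000819). For Notch3 the difference was -0.88 (SE 0.15, adjusted p 0.000823), for Hes1 -0.83 (SE 0.16, adjusted p 0.00221) and for Jag1 -0.81 (SE 0.25, adjusted p 0.0412). In each of these 4 genes both batch 2 pools lay below both batch 1 pools. The same held for the dimmer Notch1 probe set and for Lfng on array B, which were not called between batches. The brighter Notch2 probe set was the only probe set of the 9 with a higher mean in batch 2, by 0.39 (adjusted p 0.0602).

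Markers of skeletal muscle moved with the batch as well. Of the 13 tested skeletal muscle probe sets on arrays A and B, 12 were called lower in batch 2, with a median log2 difference of -2.16. Their sum on array A was 6557.2 and 1167.4 units in Runx2-null pools 1 and 2 and 5435.1 and 1470.6 units in wild-type pools 1 and 2. Of the 10 mural and smooth muscle probe sets, 5 were called lower in batch 2 and 1 higher. Of the 18 endothelial probe sets, 6 were called lower and 0 higher, where 27.1% of all probe sets were called in either direction. Their part in the batch differences of the Notch genes was not tested.

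Between genotypes, the endothelial list leaned one way without any of its probe sets passing. Of its 18 tested probe sets on arrays A and B, covering 14 of 16 genes, 17 had a negative difference, the median was -0.36 against 0.01 over all probe sets tested, and 0 were called with the block. The lowest adjusted p was 0.0896, for Eng, the endoglin gene. Groups did not overlap for 6 of the 18, all lower in Runx2-null, where 11.7% of all tested probe sets were so. The sum of 15 of them on array A was 1105.6 and 692.5 units in Runx2-null pools 1 and 2 and 1402.3 and 985.5 units in wild-type pools 1 and 2. The mural and smooth muscle list had 5 negative and 5 positive differences of 10, with a median of -0.03. The macrophage and leukocyte list leaned as the endothelial list did, with 5 of 6 negative, a median of -0.37 and 0 called. Lists for osteoblasts, hypertrophic chondrocytes and osteoclasts fell further. With the block 8 of 12, 8 of 10 and 5 of 8 probe sets fell, against 1.29% of all tested. The medians were -1.21, -1.21 and -1.82. Several of those that fell entered the test only through wild-type arrays, where they were higher. These were the brighter Ibsp probe set, Dmp1, Omd, Mmp13, the dimmer Bmp6 probe set, and the Mmp9 and Acp5 probe sets on array A. The filter favoured their sign, and the counts and medians lean on it, most of all for osteoclasts. The osteoblast and hypertrophic chondrocyte lists share Pth1r and Alpl. Of the 15 tested chondrocyte probe sets on arrays A and B, 1 fell with the block and 0 rose, with a median of 0.07. The one that fell was Hapln1 on array A, at -0.71 (adjusted p 0.00119 with the block). No probe set of these lists was at 0 on every array of its type. The part of these cell types in the Notch1, Notch2 and Hey1 values was not tested.

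Around the 10 genes, the wider pathway held calls at about the background share. Of 73 further pathway genes, 64 had a probe set with 1 symbol, 123 in all, and 78 of these on arrays A and B, from 55 genes, were tested. With the block 1 rose, 0 fell and 77 did not pass, against 2.2% of all probe sets called. Without it 0 of the 95 tested on all 3 array types were called, against 0.0259% of all, and 1 of the 78 on arrays A and B, for Myc, was below an unadjusted p of 0.05, against 2.06% of all. The median difference of the 78 was 0.03, with 36 negative and 42 positive, and 24 had no overlap between genotypes, where 25.3% of all tested probe sets had none.

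The pathway gene that passed was Dlk1, an imprinted gene that encodes a Delta-like protein without the domain by which other ligands bind Notch. Its array A probe set read 6091.6 and 4177.5 units in Runx2-null humeri and 4155.8 and 3216.5 units in wild-type humeri. Runx2-null was the higher in each batch, and the groups cleared each other by a narrow margin, between Runx2-null pool 2 and wild-type pool 1. Dlk1 rose by 0.46 on the log2 scale with the block (SE 0.07, 95% interval 0.31 to 0.62, adjusted p 0.00328), by 0.38 in batch 2 and 0.55 in batch 1. Without the block its adjusted p was 0.788, and with 1 pool left out the difference was 0.19 without Runx2-null pool 1, 0.74 without Runx2-null pool 2, 0.65 without wild-type pool 1 and 0.28 without wild-type pool 2, none of them passing. With the block it did not pass after quantile normalization (0.26, adjusted p 0.0671), without the filter on dim probe sets (adjusted p 0.127) or without the variance trend (adjusted p 0.367). A dimmer Dlk1 probe set on array B read 59.2 and 70.7 units in Runx2-null and 60.8 and 44.2 units in wild type, a difference of 0.26 with an adjusted p of 0.739. A probe set on array C read 239.7 and 268.8 units on arrays labelled Runx2-null and 289.5 and 234.4 units on those labelled wild type, a difference of -0.04 as labelled (adjusted p 0.999 without the block).

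The RefSeq window of Dlk1, chr12:109452573-109452822 on the plus strand (GRCm38.p6), is given beside the Lfng window because Dlk1 was the only one of the 78 that was called. It held neither motif in these 250 bases.
Dlk1: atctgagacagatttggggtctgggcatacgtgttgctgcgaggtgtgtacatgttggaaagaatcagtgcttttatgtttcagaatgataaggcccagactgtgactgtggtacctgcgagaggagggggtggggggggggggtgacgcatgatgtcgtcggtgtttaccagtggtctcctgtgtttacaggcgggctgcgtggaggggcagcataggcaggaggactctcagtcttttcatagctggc

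Other Hes and Hey factors and other targets gave no calls with the block on arrays A and B or without it. Myc, a growth-promoting transcription factor that Notch activates in several tissues, had the lowest adjusted p of them on arrays A and B, at 55.3 and 58.6 units in Runx2-null humeri and 91.6 and 95.6 units in wild-type humeri. Its difference was -0.65 in batch 2 and -0.66 in batch 1, with a 95% interval of -1.02 to -0.29 for both together. The adjusted p was 0.0671 with the block and 0.562 without, so it did not pass. For Bhlhe40, a Hes-related repressor, the difference was -0.53 (95% interval -0.96 to -0.11, adjusted p 0.214 with the block). Hes5, a neural Notch target, measured 0.47 on array A (adjusted p 0.485 with the block), where only 2 of its 4 arrays passed the filter.

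Ccnd1, which encodes cyclin D1, was read differently by its probe sets. On array A the brighter of 2 read 401.6 and 335.7 units in Runx2-null humeri and 396.1 and 282.8 units in wild-type humeri, a difference of 0.13 (95% interval -0.10 to 0.36, adjusted p 0.627 with the block). On array C, a probe set read 26.0 and 40.7 units on arrays labelled Runx2-null and 171.1 and 166.0 units on those labelled wild type, a difference of -2.06 as labelled (adjusted p 0.122 without the block, and 0.0506 with the block on all 3 array types). The array C arrays split by label as the 18S control did.

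No enzyme that processes receptors was called. Of 5 glycosyltransferase and furin probe sets, 0 were called and the median was -0.05, with Mfng, the Manic fringe gene, at -0.11, Pofut1, the O-fucosyltransferase gene, at -0.06 and Rfng, the Radical fringe gene, at -0.05. Of 9 metalloprotease and gamma-secretase probe sets, 0 were called and the differences ran from -0.36 to 0.39 with a median of 0.09. Genotypes did not overlap for 5 of these 9, where 25.3% of all tested probe sets did not. Adam10, the metalloprotease that cuts Notch at the surface, measured -0.36 with 1 probe set (95% interval -0.68 to -0.03, adjusted p 0.282 with the block) and -0.10 with the other. Psenen, a gamma-secretase subunit, measured 0.32 on array A (95% interval -0.01 to 0.65, adjusted p 0.352 with the block). On array B the Psenen probe set had the opposite sign, at -0.07 (adjusted p 0.936 with the block). Its suffix f, also that of the Psenen probe set on array C, marks a sequence shared by a family.

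In the nucleus, 0 of 14 probe sets of the activating complex and 0 of 16 of the corepressors were called, with medians of -0.06 and 0.21. Rbpj, the DNA-binding partner of Notch, measured 547.8 and 593.7 units in Runx2-null humeri and 381.4 and 545.4 units in wild-type humeri on array B, a difference of 0.31 (95% interval -0.09 to 0.72, adjusted p 0.463 with the block). Its probe set on array A gave 0.16 (adjusted p 0.677 with the block). The acetyltransferase gene Kat2a measured -0.24 and -0.38 in its 2 probe sets (adjusted p 0.602 and 0.435 with the block). Among corepressors, Hdac2, a histone deacetylase gene, measured 0.33 (95% interval 0.10 to 0.57, adjusted p 0.156 with the block) and Cir1, which encodes a corepressor that binds Rbpj, 0.75 (95% interval 0.15 to 1.34, adjusted p 0.225 with the block).

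Of 22 probe sets for endocytosis and ubiquitin ligase genes, 0 were called and the median was 0.03. Dtx4, a Deltex-type ubiquitin ligase gene, measured 130.4 and 35.8 units in Runx2-null humeri and 173.2 and 104.2 units in wild-type humeri on array B, a difference of -0.82 (95% interval -1.43 to -0.21, adjusted p 0.191 with the block). Nedd4, another ubiquitin ligase gene, measured 0.25 and 0.03 with its probe sets on array A (adjusted p 0.233 and 0.978 with the block), and the 4 tested Aak1 probe sets on arrays A and B lay between -0.29 and 0.22. Tle2, a Groucho-type corepressor gene, measured 0.49 on array B (95% interval -0.06 to 1.05, adjusted p 0.394 with the block). As labelled on array C, differences without the block were -0.73 for Dtx4, -0.55 for Nedd4 and -1.13 for Aak1 (adjusted p 0.353, 0.416 and 0.238), with Tle2 at -0.48 (adjusted p 0.532). For Nedd4 and Tle2 the sign as labelled on array C was opposite to that on array A or B, and no direction is drawn from it. For Dner and Hes5 the array C differences as labelled were -1.09 and 0.46 (adjusted p 0.693 and 0.747), and for Psenen 0.52 (adjusted p 0.876). The Dner probe set on array B gave -0.34 (adjusted p 0.710 with the block).

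**Figure D4:**
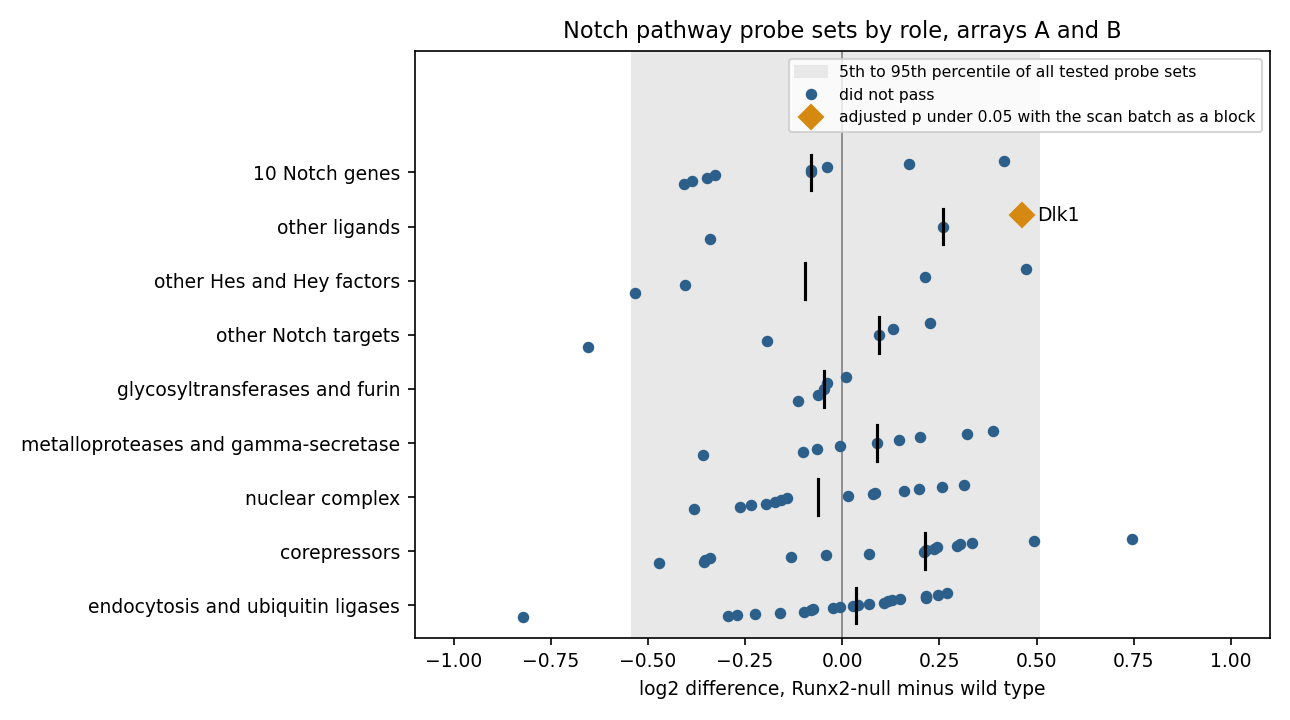
Log2 difference, Runx2-null minus wild type, of the 9 tested probe sets of the 10 Notch genes and the 78 of the further pathway genes on arrays A and B, grouped by role, with a black bar at each group's median and a grey band from the 5th to the 95th percentile of all 15601 tested probe sets. The orange diamond is Dlk1, the only one that passed with the scan batch as a block.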

How the data were processed

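The deposited values are MAS5 signal intensities on a linear scale, per the submitters' processing notes. No MAS5 version is given in the sources used here. Each array's trimmed mean came to about 100 intensity units in the deposited data, so no further normalization between arrays was applied. The authors' replicates are pools. Probe sets were named by the platform annotation, which listed 1 symbol for 29131, several for 724 and none for 6846 of 36701.

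Signals were turned into log2(signal + pseudocount), with the 20th percentile as pseudocount (7, 13 and 10 on arrays A, B and C), so differences of dim probe sets are understated. Probe sets over the 40th percentile on 2 or more arrays were tested with limma 3.58.1 in R 4.3.3, with a variance trend and Benjamini-Hochberg adjustment. The script was tested on simulated data. The design without a block was set as the main test. The fit on arrays A and B with the replicate number, which the scanner headers show to be the scan batch, as a block is printed beside it and decides "rose" and "fell", a choice made with both counts known. Arrays sharing a number deviated together from the genotype means, at r = 0.76 (A), 0.59 (B) and 0.06 (C) across probe sets.

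With the block, 1 residual degree of freedom is left and the spread is mostly borrowed from other probe sets (prior degrees of freedom 12.7 and 7.74 on arrays A and B), so standard errors and intervals lean on them. The number of arrays limits precision. Intervals are not adjusted for multiple testing. The genes and lists were chosen with earlier results of these data known. Every probe set of the 10 genes is named, and of the other pathway genes up to 3 per role with the lowest p with the block, and any called. Further probe sets of named genes are given for Ibsp, Rbpj, Dlk1, Adam10, Psenen, Dtx4, Nedd4, Aak1 and Tle2, some chosen after their values were seen. Acp5 on array B was also chosen with its values known. Marker lists beyond those printed were not used for a result.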

Additional observations from a re-analysis of the deposited data

How the results depend on the processing

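In all 22 alternative settings 0 probe sets of the 10 genes were called, the lowest adjusted p being 0.223. Over all probe sets, 6 were called without a block, 505 with the replicate block (343 on arrays A and B only), 11 after quantile normalization, 2 with a pseudocount of 1, 12 with a pseudocount of 32, 11 with the 60th percentile filter, 2 without a variance trend, 99 with adjustment within array types, and 5 to 22 with 1 array left out. Settings of the replicate block on arrays A and B, chosen after seeing the data, called 295 (quantile normalization), 401 and 552 (pseudocounts 1 and 32), 119 (no filter), 337 (60th percentile filter), 11 (no variance trend) and 339 (robust variances). Other pathway probe sets called were 0 without a block, 1 with the replicate block on all 3 array types or on A and B only (Dlk1) and 1 with adjustment within array types (Ccnd1 on array C). With the settings chosen later, 1 was called with a pseudocount of 1, the 60th percentile filter or robust variances, and 2 with a pseudocount of 32 (Dlk1 and Myc, with Myc at an adjusted p of 0.0336). Of 243 alternative values of single probe sets, 15 changed sign: Hey1 on array C to 0.041 after quantile normalization, and 14 when 1 array was left out, which leaves the scan batches unequal and assumes that the lone array of a genotype varies like the other genotype. Those ranges were -0.060 to 0.89 for the dimmer Notch2 probe set, -0.49 to 0.41 for Notch3, -0.56 to 0.40 for Hes1, -1.07 to 0.30 for Hey1 on array A, -0.23 to 0.21 for Hey1 on array C, -0.32 to 0.66 for Jag1 on array B, -0.36 to 0.20 for the dimmer Notch1 probe set and -0.20 to 0.73 for Notch4 on array C. The median over the tested probe sets ranged from -0.32 to 0.02 in these. With 1 array left out, the brighter probe sets ranged from -0.51 to -0.15 for Notch1 and from -0.61 to -0.08 for Notch2, and Lfng on array B, which entered through its higher wild-type arrays, from -0.73 to -0.08. No other cause of these changes was tested. Signals near background limit Notch4, Jag2 and Dll1, which gave no tested value on arrays A and B.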
